A study of Mus musculus with 2 samples.

Results

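Irf8, Irf4 and Prdm1 are 3 of the 31053 genes measured in single sorted cells of the mouse thymus medulla, the medullary thymic epithelial cells (mTECs), and they were chosen by symbol, with 1 row each in both matrices. The cells were sorted from thymus as EPCAM-positive and Ly51-negative and captured with a 10x Genomics 3' kit. Of the 2 libraries, the genotype given for the first is Foxn1-Cre(+) Ikaros+/fl, written as labelled +/fl, and for the other Foxn1-Cre(+) Ikarosfl/fl, written as labelled fl/fl. They compare mTECs with and without Ikaros, the transcription factor encoded by Ikzf1. Both carry Foxn1-Cre, which is active in thymic epithelium, so dendritic and T-lineage cells of the same sort are not its target. The names that the submitters gave the matrices put the genotypes the other way round, so every direction here is between libraries as labelled. Pairs of values are in the order labelled +/fl, then labelled fl/fl. The labels give no age, sex or number of mice.

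Irf8 and Irf4 encode interferon regulatory factors of blood cells. Both bind DNA weakly alone and more firmly with partners, PU.1 or SpiB at sites that join an ETS and an IRF motif, or BATF with JUN proteins at sites that join an AP-1 and an IRF motif. Irf8 is known for the development of monocytes and of cross-presenting dendritic cells, Irf4 for plasma cells and another branch of dendritic cells, and Prdm1, encoding the repressor BLIMP1, for plasma cells, effector T cells and the maturing cells of epidermis and sebaceous gland. In the thymus, mTECs present self antigens to developing T cells, and their Aire-stage cells are followed by mimetic cells that resemble tuft, microfold, keratinocyte and other peripheral types.

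The 250 bases before the RefSeq start of each gene are shown because, over all kept cells, Irf8 and Irf4 were 1.5-fold or more higher labelled fl/fl, as were 18.5% of 20318 genes, while Prdm1 was neither higher nor among the 6.3% that were lower. They are given 5′ to 3′ on the gene's strand, from RefSeq on GRCm38.p6. Capitals mark matches, on either strand, to TTCNNNGAA (bound by STAT factors), TGGGAA (the core bound by Ikaros) and TGANTCA (bound by AP-1). A repeat of GAAA with any 2 bases between, bound by IRF factors, and GGAA, the ETS core, were searched as well.
Irf8, chr8:120736108-120736357, plus strand: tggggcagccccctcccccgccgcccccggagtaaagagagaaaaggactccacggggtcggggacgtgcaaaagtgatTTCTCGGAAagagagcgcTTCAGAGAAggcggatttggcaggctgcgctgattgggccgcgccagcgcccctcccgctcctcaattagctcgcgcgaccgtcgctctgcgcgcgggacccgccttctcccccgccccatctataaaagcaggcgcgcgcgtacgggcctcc
Irf4, chr13:30748983-30749232, plus strand: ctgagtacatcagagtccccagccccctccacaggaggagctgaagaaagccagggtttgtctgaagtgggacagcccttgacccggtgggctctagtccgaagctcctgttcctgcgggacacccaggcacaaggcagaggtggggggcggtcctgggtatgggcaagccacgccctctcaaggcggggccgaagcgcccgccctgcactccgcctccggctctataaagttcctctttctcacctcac
Prdm1, chr10:44458749-44458998, minus strand: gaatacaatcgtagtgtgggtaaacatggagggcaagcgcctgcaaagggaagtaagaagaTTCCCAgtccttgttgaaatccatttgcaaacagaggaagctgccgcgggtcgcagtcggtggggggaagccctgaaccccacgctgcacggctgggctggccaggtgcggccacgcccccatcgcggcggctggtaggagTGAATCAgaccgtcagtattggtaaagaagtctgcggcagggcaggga

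The Irf8 window holds 2 TTCNNNGAA matches, which begin 171 and 153 bases before the start, and 7.02% of 32851 windows of this length hold at least 1. The Prdm1 window holds 1 TGGGAA match, found in 21.6% of windows and overlapping 1 of its 4 GGAA matches (in 93.4% of windows), and 1 TGANTCA match, found in 6.75%. The Irf4 window holds none of these letters apart from 2 GGAA, and the GAAA repeat, in 2.98% of windows, is in none of the 3. Letters in a window are not binding sites, and no binding was measured. In the GENCODE M21 annotation of GRCm38, Irf8 (ENSMUSG00000041515) spans chromosome 8, 120736358 to 120756694, with 9 exons. Irf4 (ENSMUSG00000021356) spans chromosome 13, 30749226 to 30766976, also with 9 exons, and Prdm1 (ENSMUSG00000038151) spans chromosome 10, 44437177 to 44528501, with 8 exons. The RefSeq start used for Prdm1 lies 69753 bases inside that span, so its window is the promoter of a shorter transcript. No exon of another annotated gene overlaps an exon of any of the 3.

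The libraries held 85260592 and 99871505 unique molecular identifiers (UMIs, single captured transcripts), and 4891 cells labelled +/fl and 7669 labelled fl/fl were kept, with medians of 10731 and 8204 UMIs. They shared 10 cell barcodes. Each genotype is a single library, so differences have no check by replicates, no test was made, and 95% intervals cover counting error only. Sex cannot be told apart from genotype, since Xist had 1318 and 0.937 UMIs per 1000000 (CPM) and Y-linked Ddx3y 0 and 64.0 CPM. Ikzf1 itself had 64.6 and 37.5 CPM over all kept cells. Which exons the floxed allele removes is not in the labels, so a 3' tag need not report the deletion. Cells were clustered with Irf8, Irf4 and Prdm1 left out, and 19 of 23 clusters took a name from marker lists, which means resemblance to the list only. The Aire-stage class met its markers Aire, Fezf2, Utf1, Csn2 and Tnfrsf11a in each of 3 clusters, but these were filled differently. Cluster 5, led by Fcrls and Coch, held 843 of 937 cells labelled +/fl and 56 of 2873 labelled fl/fl, and clusters 6 and 10 held 75 and 19 against 1370 and 1447. Clusters 6 and 10 also met Cd80, Cd86 and Fabp9, which cluster 5 did not. Every comparison of the whole Aire-stage class between libraries therefore sets mostly cluster 5 against clusters 6 and 10. Cells of the dendritic class met 7 of 11 markers, Flt3, Ccr7, Zbtb46, Fscn1, Il12b, Cacnb3 and Slco5a1. They did not meet Itgax, Xcr1, Clec9a and Cd209a, and in the library labelled fl/fl Cd209a had 0 UMIs.

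Among groups of at least 50 cells, Irf8 was highest in dendritic cells and, among epithelial cells, high at the Aire stage and low in tuft cells. Dendritic cells had 434 CPM (415 to 455) and 474 CPM (444 to 505). At the Aire stage the level was 185 CPM (179 to 191) and 353 CPM (347 to 359). Tuft cells, the chemosensory mimetic type with Trpm5 and Pou2f3, held 27.0 CPM (24.8 to 29.3) and 48.0 CPM (43.0 to 53.4), the lowest level of these groups in either library. The Aire-stage level was thus several times the tuft level in both libraries, with intervals far apart.

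Between these ends Irf8 was present in most epithelial groups. Immature mTECs, marked by Ccl21a and Krt5, held 128 CPM (120 to 136) and 131 CPM (123 to 139), and cycling cells 134 CPM (123 to 145) and 205 CPM (191 to 219). Cluster 0, which met the immature markers but stayed unnamed because keratinocyte genes were among its leading genes, held 132 and 119 CPM. In the library labelled +/fl these 3 groups could not be ordered, since their intervals overlapped. Cluster 3, an unnamed Epcam-bearing cluster with the matrix genes Col3a1 and Lum, held 189 CPM labelled +/fl, where its interval overlapped that of the Aire-stage cells, and had 22 cells labelled fl/fl.

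Mimetic groups other than tuft mostly reached 50 cells in the library labelled fl/fl alone. There enterocyte-hepatocyte-like cells held 238.5 CPM (216 to 262) of Irf8, neuroendocrine-like cells 143 CPM (128 to 159), ciliated-like cells 125 CPM, cluster 18 (led by Agr2, Ltf and Bpifa1) 90.1 CPM and microfold-like cells 61.6 CPM (51.5 to 73.0). Cluster 7, led by the Aire-stage marker Utf1 but with cycling markers, held 272 CPM (254 to 292) there. The intervals of microfold-like and tuft cells overlapped at the bottom of the order, but the microfold-like level moved with the clustering, to 117 CPM (106 to 128) at resolution 0.5 and 156 CPM (145 to 168) with markers left out. Over the 14 groups of that library, 5 of 13 neighbours in the order were apart beyond their intervals, as were 4 of 8 labelled +/fl. The fibroblast-like cells, 19 and 12, held 2.92 CPM from 1 Irf8 UMI and 33.8 CPM (12.4 to 73.6) from 6. The endothelial-like cells, 18 and 12, held 0 UMIs, which allows up to 26.5 CPM, and 24 UMIs, or 586 CPM (375 to 872), above the dendritic level of that library though with overlapping intervals.

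**Figure D1:**
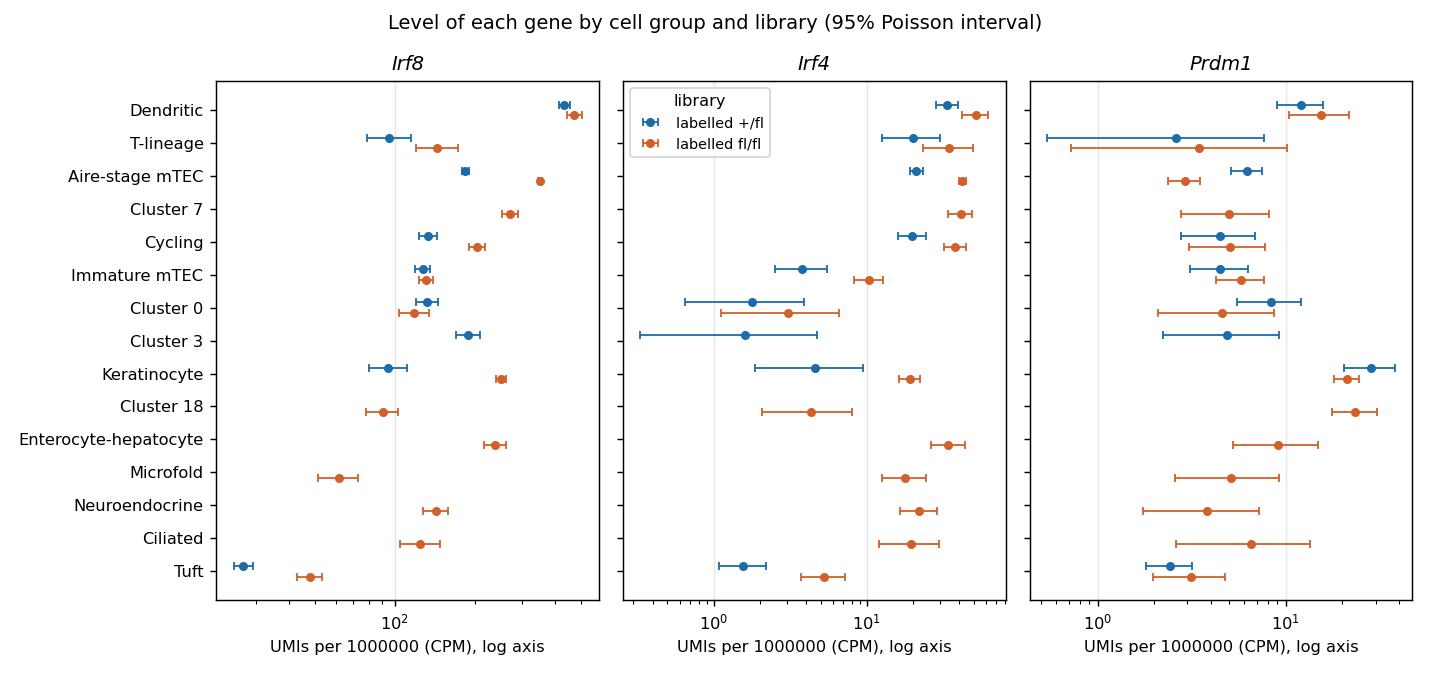
Level of Irf8, Irf4 and Prdm1 (UMIs per 1000000, log axis) in each group with at least 50 cells in a library, with blue for labelled +/fl, orange for labelled fl/fl and bars for 95% Poisson intervals. Irf8 runs from 27.0 CPM in tuft cells to 474 CPM in dendritic cells, and Prdm1 is highest in keratinocyte-like cells and cluster 18.

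Irf8 was higher in the library labelled fl/fl at the Aire stage. The ratio was 1.91-fold (1.84 to 1.99), or 0.93 on the log2 scale with 1 CPM added, from 3367 and 12437 UMIs. The ratio was also above 1 within the clusters behind the class. Within cluster 5 the levels were 183 CPM (177 to 190) and 326 CPM (283 to 373), a ratio of 1.78 (1.54 to 2.05). Within cluster 6 they were 227 CPM (191 to 268) and 480 CPM (468 to 492), a ratio of 2.11 (1.79 to 2.51). Cluster 10 held 285 CPM labelled fl/fl and 189 CPM in its 19 cells labelled +/fl. Aire also differed, with 350 and 552 CPM in the class, a ratio of 1.58 (1.53 to 1.62). Within cluster 5 Aire had 359 and 394 CPM, a ratio of 1.10 whose interval includes 1. Within cluster 6 it had 129 and 352 CPM, a ratio of 2.74 (2.20 to 3.455). The cells of cluster 6 thus differed between libraries in Aire too. The part of this in their Irf8 ratio was not tested. With 1 CPM added, Irf8 and Irf4 were both 1.5-fold or more higher at the Aire stage, as were 26.6% of the 18850 genes tested there. Prdm1 was 1.5-fold or more lower, as were 8.47%. The Irf8 ratio exceeded that of 84.2% of genes and the Irf4 ratio that of 85.0%, so many genes differed by as much.

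The Irf8 difference was not shared by every group. Immature mTECs had a ratio of 1.03 (0.939 to 1.12) and cluster 0 one of 0.899 (0.764 to 1.06), and both intervals include 1. Of the immature clusters, cluster 1 held 119 and 116 CPM and cluster 2 held 142 and 176 CPM, a ratio of 1.24 (1.07 to 1.43). Cycling cells had a ratio of 1.53 (1.38 to 1.70) and keratinocyte-like cells one of 2.65 (2.24 to 3.16), from 94.7 and 251 CPM. In the keratinocyte-like class, 9 of 11 keratinocyte markers were 1.5-fold or more lower labelled fl/fl and 0 higher, beside 12.9% and 18.7% of all genes. Neuroendocrine markers were higher there in 6 of 7 tested and Aire-stage markers in 5 of 8. The class thus differed in make-up between libraries. Aire was at 49.3 and 127 CPM in the same keratinocyte-like cells. Among those without an Aire UMI at 5000 UMIs, Irf8 was found in 25.5% (14.7 to 39.0) and 50.8% (45.0 to 56.6). At resolution 0.5 the keratinocyte-like cluster was smaller, with 42 and 116 cells, and its Irf8 was at 63.8 CPM (47.2 to 84.4) and 96.1 CPM (80.7 to 114), with overlapping intervals. The interval at the Aire stage lies wholly above that of the immature cells. Dendritic cells had a ratio of 1.09 (1.01 to 1.18), which changed sign with finer clusters (-0.05 on the log2 scale) and with the mean of per-cell CPM (-0.03).

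Tuft cells had an Irf8 ratio of 1.78 (1.55 to 2.04). By cluster it was 1.35 (0.969 to 1.84) in cluster 8, 1.69 (1.32 to 2.15) in cluster 14 and 2.04 (1.60 to 2.60) in cluster 15. With predicted doublets kept, most Aire-stage cells labelled +/fl fell in a cluster that took the tuft name, and the tuft log2 ratio turned to -0.53. Aire, a gene of another class, differed alike in the same tuft cells, with 38.4 and 75.2 CPM, a ratio of 1.96 (1.75 to 2.19). Per 100 Aire UMIs, tuft cells labelled fl/fl held 63.8 Irf8 UMIs (55.5 to 73.3) and 7.01 Irf4 UMIs (4.88 to 9.79), and Aire-stage cells of that library held 64.0 (62.6 to 65.4) and 7.64 (7.24 to 8.05). Tuft cells labelled +/fl held 70.2 (63.0 to 78.3) Irf8 UMIs per 100 Aire UMIs, against 52.8 (50.6 to 55.0) in Aire-stage cells of that library. For Irf4 these values were 4.07 (2.785 to 5.77) and 6.04 (5.43 to 6.69), with overlapping intervals. Immature mTECs held 251 and 207 Irf8 UMIs per 100 Aire UMIs, and dendritic cells 315 and 334. The part of transcripts carried over from Aire-stage or other cells in the levels of any group was not tested.

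**Figure D2:**
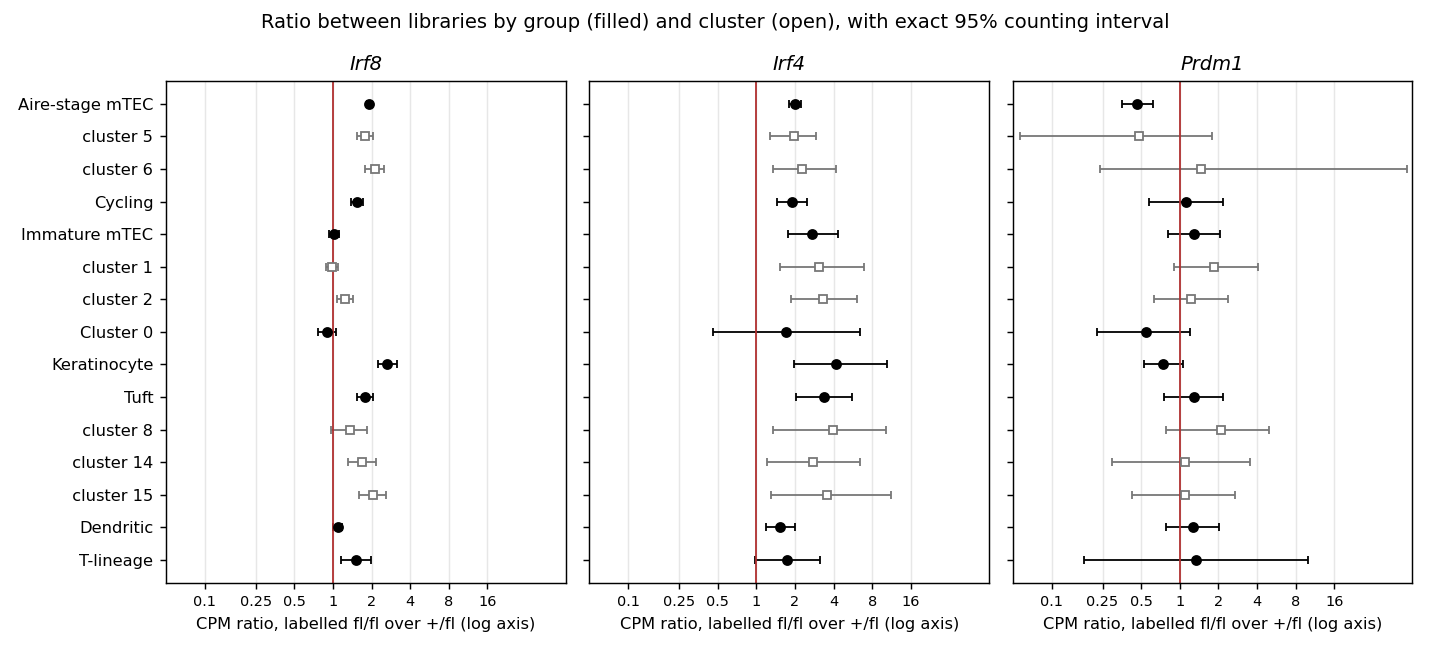
Ratio of the CPM labelled fl/fl over the CPM labelled +/fl (log axis) for groups (filled circles) and single clusters (open squares) with at least 50 cells in both libraries, with exact 95% counting intervals and a red line at 1. Irf8 and Irf4 lie above 1 at the Aire stage and within clusters 5 and 6, while the Irf8 interval of immature mTECs includes 1.

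Counted by cell, the higher Irf8 labelled fl/fl came with more cells holding many UMIs. After each cell was thinned to 2000 UMIs, the 822 Aire-stage cells left labelled +/fl had an Irf8 UMI in 27.0% (24.0 to 30.2) of cases, and the 2482 left labelled fl/fl in 43.1% (41.1 to 45.0). Unthinned, at 20347 and 10125 UMIs per median cell, it was 71.1% and 74.3%. Thinned shares were 22.1% and 21.6% in immature mTECs, 46.5% and 47.7% in dendritic cells, 13.1% and 12.6% in T-lineage cells, and 5.63% (4.62 to 6.78) and 7.89% (6.10 to 10.0) in tuft cells, at median depths of 9662 and 6660 UMIs. The shares of Aire-stage cells thus lie well above those of tuft and T-lineage cells in both libraries.

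At 5000 UMIs per cell, Aire-stage cells with 5 or more Irf8 UMIs were 12 of 685 labelled +/fl (1.75%) and 184 of 2006 labelled fl/fl (9.17%), with at most 11 and 26 UMIs in a cell. Among immature mTECs they were 5 of 527 and 7 of 732, and among dendritic cells 34 of 245 and 29 of 161. Irf8 was also uneven among T-lineage cells, where 1 cell held 26 of the 110 UMIs labelled +/fl.

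**Figure D3:**
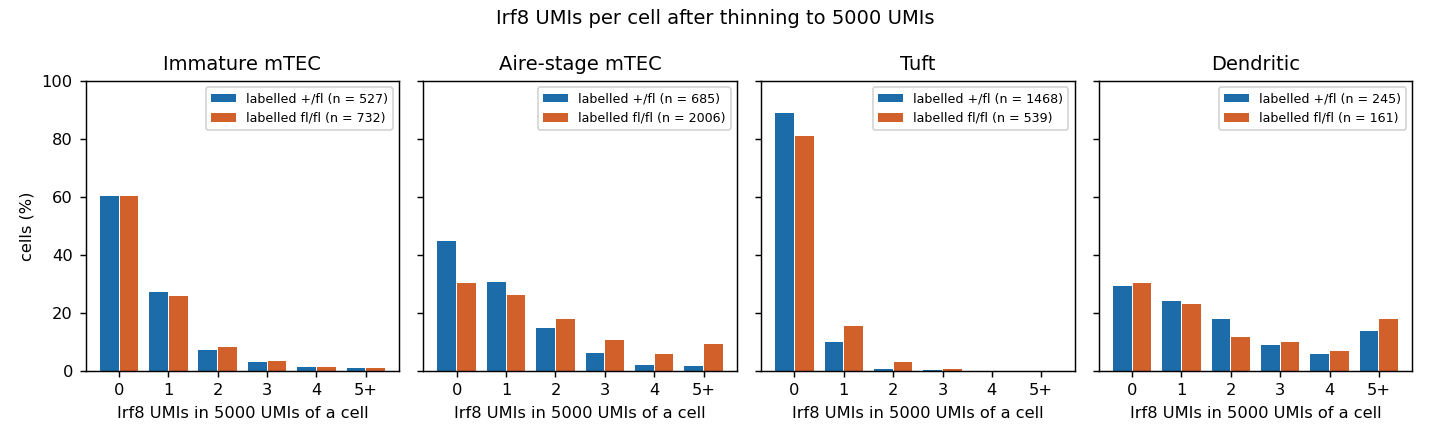
Share of cells (percent) by the number of Irf8 UMIs after thinning each cell to 5000 UMIs, in immature, Aire-stage, tuft and dendritic cells, blue for labelled +/fl and orange for labelled fl/fl. The bars of immature mTECs nearly coincide, while 9.17% of Aire-stage cells labelled fl/fl hold 5 or more UMIs against 1.75% labelled +/fl.

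Within the Aire-stage class, Irf8 showed no steady climb with Aire. At 5000 UMIs, 50.7% (43.7 to 57.7) of those labelled +/fl with 0 Aire UMIs had Irf8, as had 58.1% (50.6 to 65.2) of those with 3 or more. Labelled fl/fl these shares were 65.9% (61.3 to 70.3) and 70.4% (67.2 to 73.4). The mean count labelled fl/fl went the other way, from 2.26 Irf8 UMIs in cells with 0 Aire UMIs to 1.66 in cells with 3 or more. That order belonged to cluster 6 (2.89 and 2.07), and cluster 10 had the opposite one (1.01 and 1.54). The fl/fl share was higher at each Aire count, with overlapping intervals at 2 Aire UMIs only.

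Irf4, like Irf8, was highest in dendritic cells and high at the Aire stage, but it was far lower in immature cells than at the Aire stage. Dendritic cells had 33.6 CPM (28.3 to 39.6) and 51.5 CPM (42.0 to 62.3). At the Aire stage the level was 21.1 CPM (19.1 to 23.3) and 42.1 CPM (40.0 to 44.3), and cycling cells 19.8 CPM (16.01 to 24.3) and 37.8 CPM (32.0 to 44.3). Immature mTECs held 3.80 CPM (2.53 to 5.50) and 10.3 CPM, cluster 0 held 1.78 and 3.05 CPM, and cluster 3 held 1.61 CPM labelled +/fl, from 3 UMIs. Tuft cells held 1.57 CPM (1.08 to 2.20), the lowest of that library, and 5.27 CPM (3.71 to 7.27), with cluster 18 and cluster 0 below them but overlapping. Cluster 3, near the Aire stage in Irf8, was thus near tuft cells in Irf4.

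Among mimetic groups labelled fl/fl, Irf4 was 34.2 CPM (26.1 to 44.1) in enterocyte-hepatocyte-like cells, 22.0 CPM in neuroendocrine-like, 19.6 CPM in ciliated-like and 17.7 CPM (12.6 to 24.3) in microfold-like cells. It was 4.33 CPM (2.08 to 7.96) in cluster 18. Microfold-like cells thus stood above cluster 18 for Irf4, with intervals apart.

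Irf4 was 1.5-fold or more higher labelled fl/fl in 7 of 7 groups with enough UMIs, and Irf8 in 5 of 8. The Irf4 ratio was 1.995 (1.78 to 2.24) at the Aire stage, 1.97 (1.28 to 2.91) within cluster 5 and 2.26 (1.33 to 4.15) within cluster 6. It was 1.90 (1.46 to 2.49) in cycling cells, 1.53 (1.18 to 1.99) in dendritic cells, which Foxn1-Cre does not target, and 2.71 (1.75 to 4.30) in immature mTECs, where 28 and 86 UMIs stood behind it. In tuft cells it was 3.37 (2.05 to 5.56) from 33 and 37 UMIs, and in keratinocyte-like cells 4.16 (1.97 to 10.5) from 7 and 161 UMIs, while in the smaller keratinocyte-like cluster at resolution 0.5 the levels were 5.21 CPM (1.42 to 13.3) and 7.07 CPM (3.39 to 13.0). Per 100 Aire UMIs, immature mTECs held 7.47 Irf4 UMIs (4.90 to 10.97) labelled +/fl, overlapping the 6.04 (5.43 to 6.69) of Aire-stage cells, and 16.3 (12.8 to 20.4) labelled fl/fl, above their 7.64. Dendritic cells held 24.4 (20.1 to 29.3) and 36.2 (28.7 to 45.5), above the Aire-stage values in both libraries. In the dendritic class, markers of B-lineage cells summed to 65.7 and 402 CPM. All 6 of 6 were 1.5-fold or more higher labelled fl/fl, beside 7.21% of all genes there. The part of B-lineage transcripts in the Irf4 ratio of dendritic cells was not tested.

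The members past 1.5-fold are best read against all genes. In tuft cells Irf8 and Irf4 were past it on the higher side, as were 11.6% of 14310 genes, and 0 of the 3 were lower (7.2% of genes). In cycling cells both were higher, against 7.59% of 12213 genes, and 0 lower (8.79%). In keratinocyte-like cells both were higher, against 18.7% of 13456 genes, and 0 lower (12.9%). In immature mTECs Irf4 alone was higher, against 5.5% of 13016 genes, and 0 lower (4.05%), and in dendritic cells Irf4 alone, against 7.21% of 11041, and 0 lower (13.7%). Cluster 0 had 0 of 2 tested higher (8.38% of 10550 genes) and Prdm1 lower (7.18%), with 8.32 and 4.57 CPM and an interval of the ratio that includes 1. Irf4 exceeded the ratio of 99.0% of genes in immature mTECs and 93.1% in dendritic cells. In T-lineage cells both were higher against 14.6% of 8742 genes, and 0 lower (16.4%), and the interval of the Irf4 ratio there, 1.74 (0.977 to 3.14), includes 1.

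By cell, Irf4 at 2000 UMIs was found in 3.65% (2.48 to 5.17) and 7.62% (6.60 to 8.73) of Aire-stage cells, and in 23.2% and 29.1% without thinning. In tuft cells the thinned shares were 0.162% (0.0335 to 0.474) and 1.40% (0.701 to 2.49). In T-lineage cells they were 5.95% (1.96 to 13.35) and 5.04% (1.87 to 10.65), overlapping the Aire-stage intervals. In cycling cells Irf4 followed Aire. At 5000 UMIs per cell, Irf4 was found in 2 of 55 cycling cells labelled fl/fl with 0 Aire UMIs (3.64%, 0.443 to 12.5), 15.8% of 38 with 1, 24.2% of 33 with 2 and 15 of 42 with 3 or more (35.7%, 21.6 to 52.0). Labelled +/fl the first and last shares were 4.35% of 69 cells and 21.1% of 19 cells, with overlapping intervals. In the Aire-stage class itself the fl/fl shares were level, at 18.6%, 17.5%, 18.1% and 18.9%.

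**Figure D4:**
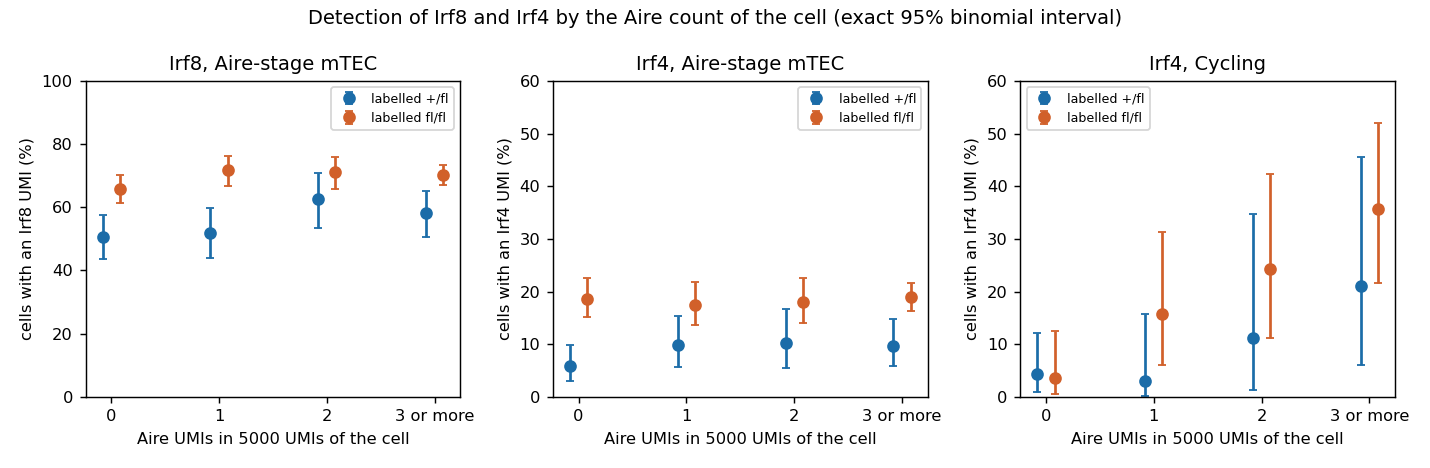
Share of cells (percent) with an Irf8 or Irf4 UMI by the number of Aire UMIs of the cell, both after thinning to 5000 UMIs, with exact 95% binomial intervals, blue for labelled +/fl and orange for labelled fl/fl. Irf4 in cycling cells labelled fl/fl goes from 3.64% to 35.7%, while Irf8 and Irf4 in Aire-stage cells stay nearly level within a library.

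Prdm1 had another order. Over all kept cells its level was 5.83 and 6.51 CPM, a ratio of 1.12 (0.978 to 1.28), from 388 and 528 UMIs. Keratinocyte-like cells, marked by Krt10, Krt1, Ivl and Sbsn, were highest labelled +/fl with 28.3 CPM (20.5 to 38.1) and held 21.0 CPM (18.1 to 24.4) labelled fl/fl. Labelled fl/fl, 9 of 11 keratinocyte markers were 1.5-fold or more lower in this class, beside 12.9% of all genes. Cluster 18 held 23.4 CPM (17.6 to 30.5) labelled fl/fl and 33.0 CPM (21.8 to 48.0) in its 45 cells labelled +/fl. Dendritic cells followed with 12.1 CPM and 15.3 CPM, then enterocyte-hepatocyte-like cells with 9.13 CPM labelled fl/fl. Immature mTECs held 4.48 and 5.75 CPM, cycling cells 4.48 and 5.03 CPM and tuft cells 2.42 and 3.13 CPM. In the order of Prdm1 labelled fl/fl, 0 of 13 neighbours were apart beyond their intervals.

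Prdm1 was higher in a narrower keratinocyte-like cluster. In the smaller one at resolution 0.5 it reached 56.0 CPM (40.5 to 75.5) and 80.6 CPM (66.5 to 96.8). In the cluster of the main clustering, at 5000 UMIs per cell, Prdm1 was found in 11 of 46 cells labelled +/fl with a UMI of Krtdap, a gene of differentiating keratinocytes (23.9%, 12.6 to 38.8), and 0 of 25 without (an exact interval of up to 13.7%). Labelled fl/fl it was found in 12.4% (7.40 to 19.1) of 137 cells with Krtdap and 6.40% (4.05 to 9.52) of 344 without. Split by Krt10, a keratin of the same cells, the shares were 21.6% (9.83 to 38.2) with and 8.82% (1.86 to 23.7) without labelled +/fl, and 10.6% (6.08 to 16.9) and 7.06% (4.58 to 10.3) labelled fl/fl. The intervals with and without overlapped in all 4 of these pairs. Irf8 was found in 30.4% (17.7 to 45.75) of those cells with Krtdap and 24.0% (9.36 to 45.1) without labelled +/fl. Labelled fl/fl the order was the other way, 46.7% (38.15 to 55.4) and 59.0% (53.6 to 64.3), with overlapping intervals in both libraries. Split by Krt10, Irf8 was found in 18.9% with and 38.2% without labelled +/fl, with overlapping intervals. Labelled fl/fl these shares were 41.8% (33.6 to 50.4) and 61.2% (55.8 to 66.4), with intervals apart. In cluster 0, where Krtdap also leads, Prdm1 was found in 4.49% of cells with it labelled +/fl and 4.39% labelled fl/fl.

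In the dendritic class, all Prdm1-positive cells at 5000 UMIs also had a UMI of Ccr7, the chemokine receptor gene of activated, migrating dendritic cells. They were 13 of 223 Ccr7-positive cells labelled +/fl (5.83%, 3.14 to 9.76) and 13 of 138 labelled fl/fl (9.42%, 5.11 to 15.6), against 0 of 22 and 0 of 23 without Ccr7. With so few cells lacking Ccr7, a lower share among them was not detectable.

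At the Aire stage Prdm1 was low. The class held 6.20 CPM (5.11 to 7.45) and 2.90 CPM (2.36 to 3.51), a ratio of 0.467 (0.354 to 0.616). Labelled +/fl this lay above the 2.42 CPM (1.80 to 3.18) of tuft cells with intervals apart, and labelled fl/fl the intervals of the Aire stage and tuft cells overlapped. Within cluster 5 the levels were 6.49 and 3.105 CPM, from 112 and 2 UMIs, and within cluster 6 they were 1.59 and 2.31 CPM, from 1 and 28 UMIs, and both ratio intervals include 1. The class ratio therefore sets cluster 5 of one library against clusters 6 and 10 of the other. Thinned shares were 0.973% (0.421 to 1.91) and 0.443% (0.221 to 0.792), beside 0.379% (0.152 to 0.779) and 0.891% (0.359 to 1.83) in tuft cells, with overlapping intervals, and no difference in shares was detectable at this depth. With predicted doublets kept, the log2 ratio became 1.20.

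The 3 genes were seldom detected together. At 5000 UMIs per cell, 59.7% of Aire-stage cells labelled +/fl and 75.2% labelled fl/fl held a UMI of at least 1 of them, and 0.292% and 0.150% held all 3. Prdm1 was found in only 18 of these 685 and 22 of these 2006 cells, so few could hold all 3. Irf4 was found in 9.52% of Irf8-positive and 7.49% of Irf8-negative Aire-stage cells labelled +/fl, and in 19.1% and 17.0% labelled fl/fl. Among dendritic cells those shares were 13.9% and 16.7%, and 19.6% and 16.3%. In tuft cells they were 1.86% and 0.383%, and 3.88% and 2.52%, and in cycling cells 9.43% and 5.81%, and 21.6% and 13.6%. In keratinocyte-like cells, Prdm1 was found in 3 of 20 Irf8-positive cells (15%) and 15.7% of Irf8-negative cells labelled +/fl, and in 4.87% and 12.1% labelled fl/fl.

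Dendritic, macrophage-monocyte and B-lineage markers were also higher in sum in Aire-stage cells labelled fl/fl, while T-lineage markers were nearly level. Among tested markers, 7 of 10 dendritic, 5 of 9 macrophage-monocyte, 5 of 10 T-lineage and 4 of 6 B-lineage were 1.5-fold or more higher. Over all genes tested there the share was 26.6%, and 1 T-lineage marker was lower (8.47% of genes). The dendritic list had UMIs of 10 of 11 genes labelled +/fl (Cd209a at 0) and all 11 labelled fl/fl, with sums of 219 and 434 CPM, against 2948 and 3081 CPM in dendritic cells. The macrophage-monocyte list summed to 602 and 1070 CPM, the T-lineage list to 64.5 and 66.6 CPM and the B-lineage list to 53.6 and 85.4 CPM. A further rule kept only cells without UMIs of a set of leukocyte genes, 818 of 937 and 2122 of 2873 Aire-stage cells. The log2 ratio there was then 0.89 for Irf8 and 0.83 for Irf4, against 0.93 and 0.96. The rule also kept 10 of 11 and 33 of 43 macrophage-monocyte cells, so it does not take out macrophage transcripts. Their part in the ratio was not tested. In tuft cells the dendritic list summed to 79.6 and 120 CPM and the log2 ratio of Irf8 under the same rule was 0.83, against 0.81.

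Among DNA-binding partners at the Aire stage, 4 of 14 were 1.5-fold or more higher labelled fl/fl and 2 lower, beside 26.6% and 8.47% of all genes there, with a median log2 ratio of 0.30, against 0.12 over all genes. Spi1, encoding PU.1, had 7.57 and 20.3 CPM, Batf 6.14 and 10.4 CPM, Batf2 0.274 and 3.29 CPM and Batf3 7.68 and 38.8 CPM. Spib, which microfold cells also use, was lower with 144 and 92.4 CPM, as was Ikzf1 with 110 and 47.3 CPM. Jun, Junb and Jund were within 1.5-fold. Of the other interferon regulatory factors 0 of 7 were past 1.5-fold in either direction, beside the same 26.6% and 8.47%, and their median of 0.28 was above that of all genes. Irf1 had 115 and 140 CPM and Irf7 36.1 and 34.7 CPM. Upstream, 2 of 15 receptors and signal carriers were higher and 0 lower, below the 26.6% and 8.47% of all genes (median 0.13). They were Rel with 42.9 and 114 CPM and Nfkb1 with 66.5 and 127 CPM, both NF-kB subunits. Tnfrsf11a, encoding the receptor RANK, had 146 and 144 CPM and Cd40 155 and 188 CPM.

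Genes reported to depend on Irf8 in myeloid or B cells were higher by 1.5-fold in 9 of 11 at the Aire stage and lower in 0, beside 26.6% and 8.47% of all genes, with a median of 1.20. Batf3 is among them. Ctsc, a lysosomal protease gene, had 12.3 and 61.4 CPM, Nos2, the inducible nitric oxide synthase gene, 27.4 and 167 CPM, Cst3 367 and 910 CPM, and Cybb, of the phagocyte oxidase, 24.0 and 56.3 CPM. Pml had 19.9 and 16.8 CPM and Bcl6 6.53 and 6.33 CPM. A count this high was not particular to these genes. At the Aire stage 9 of 11 keratinocyte markers (median 1.83) and 7 of 8 enterocyte-hepatocyte markers (1.26) were also higher. Other marker lists differed, with 2 of 8 cycling markers higher (0.43) and 11 of 12 tuft markers lower (-1.40). In tuft cells 5 of 9 tested genes of the Irf8 list were higher and 1 (Bcl6) lower, beside 11.6% and 7.2% of all genes, with a median of 0.83 against 0.03. Ctsc was at 51.3 and 292 CPM there and Klf4 at 430 and 542 CPM. In immature mTECs 2 of 9 were higher, beside 5.5% of all genes (median 0.24 against 0.02).

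MHC class II genes, which present antigen to CD4 T cells, were 1.5-fold or more higher in 5 of 10 at the Aire stage, beside 26.6% of all genes (median 0.61), with H2-Eb1 at 2771 and 5112 CPM and H2-Oa at 219 and 466 CPM. The class II activator gene Ciita had 130 and 146 CPM. In immature mTECs 0 of 10 were past 1.5-fold in either direction, beside 5.5% and 4.05% of all genes (median 0.04), and in tuft cells 8 of 10 were higher, beside 11.6% of all genes (median 0.74). Costimulation genes were higher in 5 of 6 at the Aire stage, beside the same 26.6% (median 1.09), of which Cd80 and Cd86 also name the class. Genes of the plasma cell programme were higher in 4 of 6 tested, beside 26.6%, but Xbp1 and Sdc1, the genes of a secretion factor and of CD138, each had a log2 ratio of -0.01, and those past 1.5-fold were Jchain, Mzb1, Cd38 and Tnfrsf17. With at least 100 UMIs required, 2 genes of that list were higher.

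Genes reported to be repressed by Prdm1 were higher in 1 of 9 and lower in 2 at the Aire stage, beside 26.6% and 8.47% of all genes, with a median of 0.00. Tcf7 had 7.95 and 28.3 CPM, Myc 38.4 CPM labelled +/fl and a log2 ratio of -0.60, and Spib is given above. Of the other PRDM genes 3 of 13 tested were higher (among them Prdm14 and Prdm16, each under 4 CPM) and 2 lower (Prdm6 and Mecom), beside the same 26.6% and 8.47%, with a median of 0.11. Mecom, a regulator of blood stem cells, had 17.7 and 3.80 CPM.

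The genes most like each of the 3 across cells were found from Pearson's r of log2(CPM + 1) over 32 points, each a cluster with at least 50 cells in 1 library (13 labelled +/fl and 19 labelled fl/fl), among 9373 genes of at least 10 CPM. Points of a library share its depth and processing. For Irf8 the 6 highest were H2-Eb1 (0.90), H2-DMa (0.89), H2-Aa (0.88), Pdlim4 (0.87), Ksr1 (0.87) and H2-Ab1 (0.87). For Irf4 they were Insm1 (0.92), Cpne2 (0.91), Kynu (0.91), Cd70 (0.91), Srgn (0.90) and Icosl (0.90). For Prdm1 they were lower, Idh1 (0.76), Gsto1 (0.75), Krt6a (0.74), Psapl1 (0.72), Fam84a (0.69) and Gsta4 (0.67). With the points of the library labelled +/fl alone, 1, 2 and 0 of these were again among the 6 highest of Irf8, Irf4 and Prdm1, and with those labelled fl/fl alone 3, 3 and 4 were. Between the 3 genes r was 0.74 for Irf8 and Irf4, 0.28 for Irf8 and Prdm1 and 0.08 for Irf4 and Prdm1. With Aire, r was 0.86 for Irf4 and 0.60 for Irf8.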

How the data were processed

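The deposited values are whole UMI counts of genes by barcode, not normalized, in 2 matrices filtered by the authors. The submitters' processing notes name Cell Ranger and Seurat, with no role. The matrix headers carry the version string 3.1.0, and the genome build is not given in the sources used here.

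Barcodes passed with 500 genes and 1000 UMIs or more and no more than 15% mitochondrial UMIs (69.8% and 74.0% of 7304 and 11095 barcodes). Scrublet marked 2 and 0 cells, under the 0.5% set for a working call, so the 208 and 539 cells with the highest scores were removed, at 0.8% per 1000 cells. Clustering (scanpy 1.11.5, no integration) used 2000 variable genes without the 3 genes, 30 components, 15 neighbours and Leiden resolution 1. A cluster took the list with the largest share of its markers in at least 10% of cells and at 2-fold over the median of the other clusters, with at least 3 markers met and its 10 leading genes not led by another list. Scoring by share, and leaving lists of non-epithelial cells unnamed above 500 CPM of Epcam, were set after the clusters were seen. The Epcam rule leaves out cluster 3, with 166 and 22 cells.

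UMIs were summed per group and library, with exact Poisson intervals for levels and exact conditional ones for ratios, at 95%. Ratios are labelled fl/fl over labelled +/fl, and log2 values add 1 CPM. Genes with at least 20 UMIs in a class count as tested there. Shares carry Clopper-Pearson intervals. Cells were thinned to 2000 UMIs, leaving out 323 and 788 cells, or to 5000, leaving out 1126 and 2447. A count of 0 allows 3 UMIs. The ratio and its interval were tested on simulated data. Named genes are the 3 genes, 6 most alike to each, and members of 9 gene lists and 23 marker lists. The genes and lists were chosen with earlier results of these data known. Alternatives were other resolutions, filters, doublet handling, clustering without markers, per-cell CPM, equal cluster weights and cells without UMIs of a set of leukocyte genes. Some members of the gene lists are not reported here by name.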

Additional observations from a re-analysis of the deposited data

How the results depend on the processing

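Over 9 alternatives the Aire-stage log2 ratio stayed above 0 for Irf8 (0.69 to 1.08) and Irf4 (0.83 to 1.20). For Irf8 it was 1.08 at resolution 2, 0.83 with markers left out of the clustering, 0.86 with per-cell CPM and 0.69 with doublets kept, where Irf4 was 1.20. The Irf8 level labelled +/fl was then 197 CPM without markers and 216 CPM with doublets kept, and the level labelled fl/fl 343 CPM at resolution 0.5, 404 CPM at resolution 2 and 346 CPM per cell. With doublets kept, 842 of the 937 Aire-stage cells labelled +/fl fell in a cluster that took the Tuft name. The tuft ratios then turned to -0.53 for Irf8 and -0.03 for Irf4, and the Aire-stage Prdm1 ratio to 1.20. The Irf8 ratio of dendritic cells turned to -0.05 at resolution 2 and -0.03 with per-cell CPM. Its levels labelled +/fl were 509, 406 (doublets kept) and 492 CPM (per cell), and 442 CPM labelled fl/fl with doublets kept. The cause was not tested. Irf8 in immature mTECs was 0.16 with equal cluster weights. Prdm1 in keratinocyte-like cells labelled fl/fl was 35.3 CPM with doublets kept and 29.3 CPM per cell. The Irf8 share of Aire-stage cells was 17.4% and 25.7% at 1000 UMIs, 55.2% and 69.7% at 5000, 71.1% and 74.3% without thinning, and 45.9% labelled fl/fl at resolution 2. No paired analysis was possible because each genotype has 1 library. Prdm1, at 388 and 528 UMIs in all, is limited by depth.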
